A study of Mus musculus with 48 samples.

Results

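CC chemokines are small secreted proteins that direct the migration of leukocytes, and 8 of their genes (Ccl2, Ccl3, Ccl4, Ccl5, Ccl7, Ccl8, Ccl12 and Ccl22) were followed together with the receptor gene Ccr2 in RNA from whole mouse melanoma tumors. The 9 genes were chosen by name out of the 55450 in the count table, and all 9 passed the filter on low counts in both experiments. B16-D5 cells, a subclone of a mouse melanoma line, had been injected under the skin of the flank 8 days before therapy. The hosts were C57BL/6J mice (WT) or iNOS KO mice, which lack inducible nitric oxide synthase. They arrived aged 4 weeks and were kept for 2 weeks before use. Mice were left untreated or received 250 µg of control IgG or anti-PD-1 antibody in 200 µL, on a schedule of days 0 and 3. Tumors taken at 6 h or day 1 thus preceded the second dose, and for those of day 3 the order is not stated. Only the host carries the knockout, so the melanoma cells kept their own Nos2 gene in every tumor. The first experiment held 30 WT tumors: untreated tumors at 0 h, and untreated, IgG and anti-PD-1 tumors at 6 h, day 1 and day 3. The second held 18 tumors at day 7, untreated or given IgG or anti-PD-1, from WT and iNOS KO mice. Each of the 16 conditions had 3 tumors, 1 per mouse.

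Ccl2, Ccl7 and Ccl12 are ligands of CCR2, the receptor by which inflammatory monocytes leave the bone marrow and enter inflamed tissue and tumors. Mouse Ccl8 belongs to the same gene cluster and acts through CCR8, a receptor of T helper cells. Ccl3, Ccl4 and Ccl5 attract activated T cells, NK cells and macrophages, and Ccl3 and Ccl5 bind CCR1. Ccl22 is made by dendritic cells and macrophages and binds CCR4, a receptor of regulatory T cells. Many of these ligands are induced by interferons or by NF-kB, and macrophages, T cells and tumor cells can all be their source. Because whole tumors were sequenced, fewer cells of a type and less RNA per cell cannot be told apart.

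On chromosome 11 of GRCm38, the 4 genes Ccl2 (ENSMUSG00000035385.5, 82035571 to 82037453), Ccl7 (ENSMUSG00000035373.2, 82045712 to 82047525), Ccl12 (ENSMUSG00000035352.3, 82101845 to 82103400) and Ccl8 (ENSMUSG00000009185.2, 82115185 to 82116799) lay on the forward strand within 81.2 kb. A second cluster on the same chromosome held Ccl5 (ENSMUSG00000035042.2, 83525778 to 83530518), Ccl3 (ENSMUSG00000000982.5, 83647844 to 83649355) and Ccl4 (ENSMUSG00000018930.3, 83662584 to 83664683) within 139 kb, with Ccl4 on the forward strand and Ccl5 and Ccl3 on the reverse strand. Ccl22 (ENSMUSG00000031779.3, 94745590 to 94751699) was on chromosome 8 and Ccr2 (ENSMUSG00000049103.14, 124101950 to 124113557) on chromosome 9. Of the 9 genes only Ccl2 overlapped another gene, Gm17268 on the opposite strand, with which it shared 0 exonic bases. Promoter sequences around the start site, from RefSeq for GRCm38.p6, were at hand for 5 of the genes (Ccl3, Ccl8, Ccl12, Ccl22 and Ccr2). The pair below is shown because Ccl12 and Ccl8 are neighbours in the first cluster and their levels moved together to a moderate degree among tumors of a condition (r = 0.46 in the time course and 0.48 at day 7). Capitals mark TATAAA, the core of the TATA box, which both carried about 30 bases before the start site.
Ccl8 promoter, forward strand, chr11:82114935-82115234: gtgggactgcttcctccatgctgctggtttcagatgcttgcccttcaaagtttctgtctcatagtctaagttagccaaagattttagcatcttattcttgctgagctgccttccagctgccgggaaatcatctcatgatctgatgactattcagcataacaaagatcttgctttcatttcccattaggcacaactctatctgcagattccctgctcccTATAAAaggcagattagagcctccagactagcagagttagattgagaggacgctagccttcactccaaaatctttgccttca
Ccl12 promoter, forward strand, chr11:82101595-82101894: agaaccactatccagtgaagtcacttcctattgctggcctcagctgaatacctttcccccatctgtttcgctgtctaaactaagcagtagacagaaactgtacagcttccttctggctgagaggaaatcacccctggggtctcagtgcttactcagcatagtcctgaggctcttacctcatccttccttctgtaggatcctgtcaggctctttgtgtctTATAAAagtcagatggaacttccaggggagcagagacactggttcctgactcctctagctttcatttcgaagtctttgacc
The first base of TATAAA was at −32 in Ccl8 and at −31 in Ccl12, counted from the start site, and 13.6% of 32851 promoters of the same length held these letters on either strand. TATAAA was not found in the promoters of Ccl3, Ccl22 or Ccr2. None of the 5 windows held, on either strand, the NF-kB letters GGG and TTTCC set 2 bases apart, the interferon-stimulated response element with GAAA and GAAA set 2 bases apart, TTCNNNGAA (interferon-gamma-activated site) or TGANTCA (AP-1). Those letters occurred in 1.63%, 3.44%, 8.3% and 7.81% of the same 32851 promoters, a set that does not cover every chromosome.

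Libraries held between 25574203 and 47687872 counts on genes in the time course and between 11625862 and 40959309 at day 7. Levels are given as CPM, the counts of a gene scaled to the library total after TMM adjustment. For a gene without counts the upper limit of 3 counts came to at most 0.105 CPM in the first experiment and 0.197 CPM in the second. That limit covers counting error only. Summed CPM of 8 melanoma markers was between 9396 and 20659 and between 9681 and 18897 in the 2 experiments, so every tumor held melanoma RNA. Markers of macrophages and monocytes summed to between 80.2 and 1085 CPM over the 48 tumors, while the 6 neutrophil markers stayed at or below 25.3 CPM. The genotype was taken from the titles, since the genotype field reads WT in all samples, and gene-level counts of Nos2 did not separate it. Nos2 had 4.21, 2.41 and 4.98 CPM in untreated, 2.47, 5.92 and 5.83 CPM in IgG and 5.4, 1.15 and 1.3 CPM in anti-PD-1-treated tumors labelled iNOS KO, against 1.4, 3.28 and 3.56, 1.45, 3.43 and 2.81 and 4.09, 7.28 and 2.87 CPM in the same WT conditions. The fitted log2 fold change (with its standard error, SE) of Nos2 over the 3 treatments was 0.18 (SE 0.333, 95% interval −0.52 to 0.87, adjusted p = 1 from edgeR). Directions between genotypes below are therefore those of the labels. Treatments were taken from the titles too, and the treatment and time fields both matched the condition used in only 5 of 48 samples. At day 7, 3 libraries stood apart in their summed level of 1502 sensory receptor genes (smell and taste). It was 916 CPM in replicate 1 of the untreated iNOS KO tumors. In the anti-PD-1 group of WT mice it was 3710 CPM for replicate 3 and 1304 CPM for replicate 4, against at most 232 CPM in the other 15 libraries. Values without these 3 libraries are given for part of the results only.

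Compared per length of transcript, Ccl8 was the most abundant of the 9 genes. In the time course the median level was 21.2 RPKM (CPM per kilobase of exonic length) for Ccl8, 16.4 for Ccl2, 14.9 for Ccl5, 7.2 for Ccl7, 6.59 for Ccl12, 4.37 for Ccr2, 3.22 for Ccl22, 2.03 for Ccl3 and 0.833 for Ccl4. At day 7 the median levels ran from 36.1 RPKM for Ccl8 and 17.8 for Ccl2 through 10.9 for Ccl12, 7.46 for Ccl7 and 5.48 for Ccl5 down to 1.92 for Ccr2, 1.22 for Ccl22, 1.15 for Ccl3 and 0.453 for Ccl4. Ccl4 had at most 3 counts in 2 of the 30 and 4 of the 18 libraries. In the time course, tumors of one condition differed by more than the condition means did for all 9 genes. The standard deviation of log2 levels within a condition was 0.93 for Ccl5, 0.92 for Ccl22 and 0.77 for Ccr2 in the time course, while the condition means of these genes had standard deviations of 0.39, 0.39 and 0.56. At day 7 the spread between condition means was close to or above that within conditions for Ccl5 (0.66 against 0.60), Ccl7 (0.49 against 0.40), Ccl22 (0.58 against 0.55) and Ccr2 (0.73 against 0.74).

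**Figure D1:**
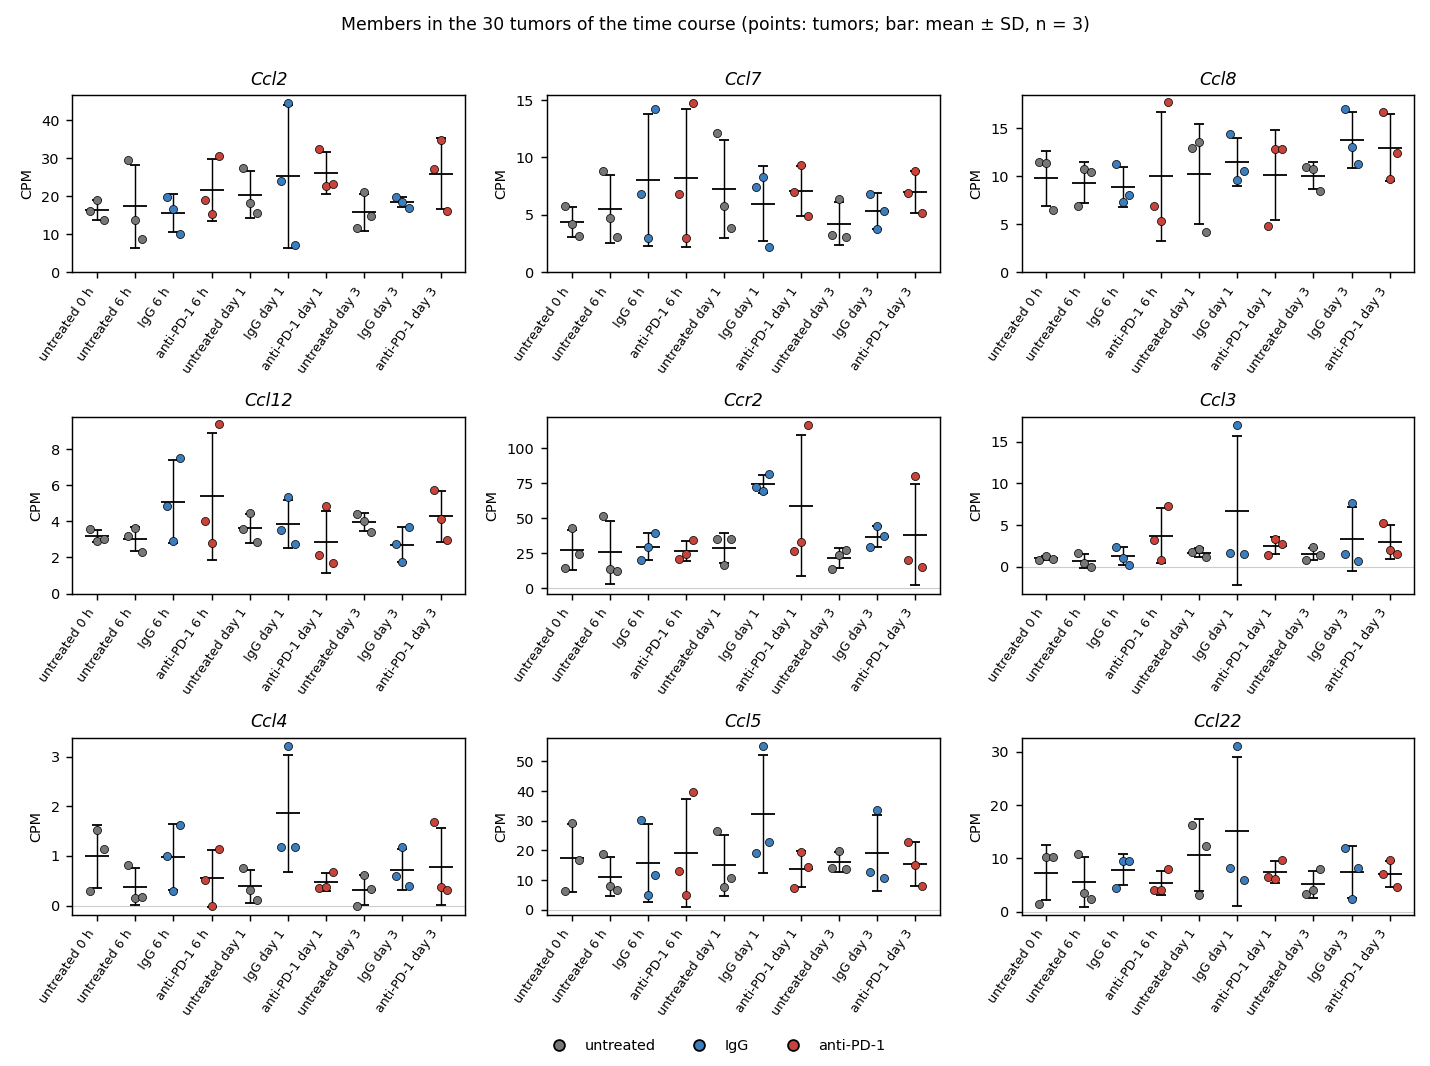
CPM of the 9 genes (y axis, from 0) in each of the 30 WT tumors of the time course by condition (x axis), with the mean and SD of 3 tumors. The tumors of a condition are spread widely: Ccl5 reaches 55.3 CPM in 1 IgG tumor of day 1, and Ccr2 116.9 CPM in 1 anti-PD-1 tumor of day 1.

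In the time course, 0 of the 9 genes passed an adjusted p of 0.05 in any of the 12 comparisons with edgeR's quasi-likelihood test. The background was as low, since 0% of the 26848 genes tested were called in each of these 12 comparisons. At an unadjusted p under 0.05 with edgeR, which is meant by unadjusted p from here on, the count was 1 of 9 for IgG against untreated tumors at day 1 (Ccr2, where 5.43% of all genes passed), 1 of 9 for anti-PD-1 against untreated tumors at 6 h (Ccl3, where 3.3% passed) and 0 in the other 10 comparisons. DESeq2 called 0 of the 9 genes at an adjusted p of 0.05 in the same comparisons, where it called between 0.00372% of all genes (anti-PD-1 against IgG at 6 h) and 1.64% (any difference among the 10 conditions). The unadjusted p of DESeq2 was under 0.05 for 3 of 9 genes in IgG against untreated tumors at day 1 (6% of all genes). It was so for 1 of 9 in anti-PD-1 against untreated tumors at 6 h (2.85%) and for 1 of 9 over the 10 conditions (8.57%).

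Ccl2, which attracts monocytes through CCR2, had 18.9, 15.3 and 30.7 CPM at 6 h after anti-PD-1, 19.9, 16.7 and 10.1 CPM after IgG and 29.5, 13.9 and 8.68 CPM without treatment. These ranges overlapped, and the log2 fold change of anti-PD-1 against IgG at 6 h was 0.47 (SE 0.454, 95% interval −0.46 to 1.41, adjusted p = 1 from edgeR). Averaged over the 3 times it was 0.34 (SE 0.261, 95% interval −0.20 to 0.88, adjusted p = 0.917 from edgeR), and changes in both directions lay inside the interval. Ccl7 had a log2 fold change of 0.22 (SE 0.332, 95% interval −0.46 to 0.91, adjusted p = 0.955 from edgeR) over the 3 times, Ccl12 one of 0.11 (SE 0.261, 95% interval −0.43 to 0.64, adjusted p = 0.995 from edgeR) and Ccl8 one of −0.032 (SE 0.244, 95% interval −0.53 to 0.47, adjusted p = 1 from edgeR). The 3 monocyte and T helper attractants Ccl7, Ccl8 and Ccl12 were each highest in the same tumor, anti-PD-1 replicate 5 at 6 h, with 14.8, 17.7 and 9.4 CPM. The other two anti-PD-1 tumors of 6 h had 6.82 and 2.98 CPM of Ccl7, against 6.84, 2.97 and 14.3 CPM in the IgG tumors and 8.85, 4.71 and 3.09 CPM in the untreated tumors. The IgG tumor nearest to that maximum also had 7.51 CPM of Ccl12.

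Ccr2, the receptor of monocytes, had 72.1, 69.7 and 81.9 CPM at day 1 after IgG, 26.7, 33 and 117 CPM after anti-PD-1 and 35.3, 16.6 and 35.2 CPM without treatment. All 3 IgG tumors lay above all 3 untreated tumors, and the log2 fold change of IgG against untreated was 1.36 (SE 0.595, 95% interval 0.14 to 2.59, adjusted p = 0.859 from edgeR). The anti-PD-1 tumors held both the lowest of the 6 antibody values and the highest of the whole time course. Macrophage and monocyte markers summed to 586 to 850.0 CPM in the IgG tumors of day 1 and to 228 to 528 CPM in the untreated ones, and their part in the Ccr2 values was not tested. At day 3 the levels were 29.3, 44.5 and 37 CPM after IgG and 13.4, 23.5 and 27.1 CPM without treatment, with a log2 fold change of 0.79 (SE 0.589, 95% interval −0.42 to 2.01, adjusted p = 1 from edgeR).

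Ccl3, which attracts macrophages and T cells, was at 3.17, 0.753 and 7.23 CPM at 6 h after anti-PD-1, 2.41, 1.1 and 0.246 CPM after IgG and 1.6, 0.46 and 0 CPM without treatment. Against untreated tumors the log2 fold change was 2.44 (SE 1.12, 95% interval 0.14 to 4.74, adjusted p = 1 from edgeR), and without anti-PD-1 replicate 5, the highest tumor of the 3, it was 1.49, while without untreated replicate 1 it was 4.04. Against IgG it was 1.57 (SE 1.08, 95% interval −0.66 to 3.79, adjusted p = 1 from edgeR). Ccl5, which attracts T cells and is expressed by them, had 13.1, 5.02 and 39.8 CPM after anti-PD-1, 30.4, 5.16 and 11.8 CPM after IgG and 18.7, 7.91 and 6.8 CPM without treatment at 6 h. The groups overlapped, and the log2 fold change against IgG, 0.29 (SE 0.696, 95% interval −1.14 to 1.72, adjusted p = 1 from edgeR), turned to −0.76 without anti-PD-1 replicate 5. At day 1 it was −1.23 (SE 0.704, 95% interval −2.68 to 0.22, adjusted p = 1 from edgeR), with 7.53, 19.6 and 14.3 CPM after anti-PD-1 and 19.1, 55.3 and 22.8 CPM after IgG. The IgG tumor with 55.3 CPM of Ccl5 was also the highest of the time course for Ccl2, Ccl3, Ccl4 and Ccl22, with 44.7, 17.1, 3.22 and 31.1 CPM. Ccl4 had 0.357, 0.369 and 0.676 CPM after anti-PD-1 and 1.18, 3.22 and 1.18 CPM after IgG at day 1. Every IgG tumor lay above every anti-PD-1 tumor there, and the log2 fold change was −1.99 (SE 1.18, 95% interval −4.42 to 0.45, adjusted p = 1 from edgeR). Summed NK cell markers were 15.2 to 29.8 CPM after IgG and 7.31 to 12.9 CPM after anti-PD-1 at day 1, without overlap. T cell markers were 21.2 to 60.7 and 6.88 to 24.8 CPM, and the part of both lists in the Ccl4 and Ccl5 values was not tested.

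Ccl22, the CCR4 ligand, was at 6.49, 6.14 and 9.77 CPM after anti-PD-1, 8.13, 31.1 and 5.99 CPM after IgG and 16.3, 3.13 and 12.3 CPM without treatment at day 1. Averaged over the 3 times its log2 fold change of anti-PD-1 against IgG was −0.54 (SE 0.41, 95% interval −1.39 to 0.30, adjusted p = 0.917 from edgeR), and that of Ccl5 was −0.42 (SE 0.402, 95% interval −1.24 to 0.41, adjusted p = 0.923 from edgeR). Between untreated tumors of day 3 and 0 h none of the 9 genes passed the test. Their log2 fold changes ran from −1.65 for Ccl4 to 0.58 for Ccl3, with a median of −0.054 against 0 over all genes tested. In replicate 3 of the 0 h tumors keratinocyte markers summed to 3340 CPM and skeletal muscle markers to 4953 CPM, the highest of the 30 tumors, and their part in these values was not tested. For anti-PD-1 against IgG over the 3 times, 3 of the 9 genes had a positive log2 fold change, and their median was −0.032 against −0.042 over all genes. The differences of the anti-PD-1 effect between times were tested for each of the 9 genes, and none reached an adjusted p under 0.05.

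At day 7, the genes were compared between genotypes within each treatment and between treatments within each genotype. Again 0 of the 9 genes passed an adjusted p of 0.05 with edgeR in any of the 12 comparisons, but here some of the unadjusted values were low and DESeq2 called up to 3 genes. The share of all 30837 genes called by edgeR was 0.587% for iNOS KO against WT without treatment, 0% with IgG, 0% with anti-PD-1 and 0.00973% for the mean of the 3 treatments. It was 0% for anti-PD-1 against IgG, 0% for IgG against untreated and 0% for anti-PD-1 against untreated in WT mice. In iNOS KO mice it was 0% for anti-PD-1 against IgG, 0.188% for IgG against untreated and 0.0422% for anti-PD-1 against untreated. It was 0% for the interaction of anti-PD-1 against IgG with genotype and 1.66% for any difference among the 6 conditions. The share under an unadjusted p of 0.05 was also taken with the sensory receptor level as a covariate. For iNOS KO against WT it fell from 32.3% to 2.98% with anti-PD-1 and from 16.5% to 7.34% without treatment. With IgG it rose from 6.26% to 10.8%. In WT mice it fell from 31.9% to 3.07% for anti-PD-1 against untreated and from 16.3% to 5.75% against IgG. Unadjusted shares below are those without the covariate. The median log2 fold change of all genes was itself away from 0 in several of these comparisons (0.49 for iNOS KO against WT untreated, −0.91 for iNOS KO against WT with anti-PD-1, 0.68 and 0.96 for WT anti-PD-1 against IgG and against untreated, −0.45 and −0.44 for IgG and anti-PD-1 against untreated in iNOS KO), and the members are read against it.

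**Figure D2:**
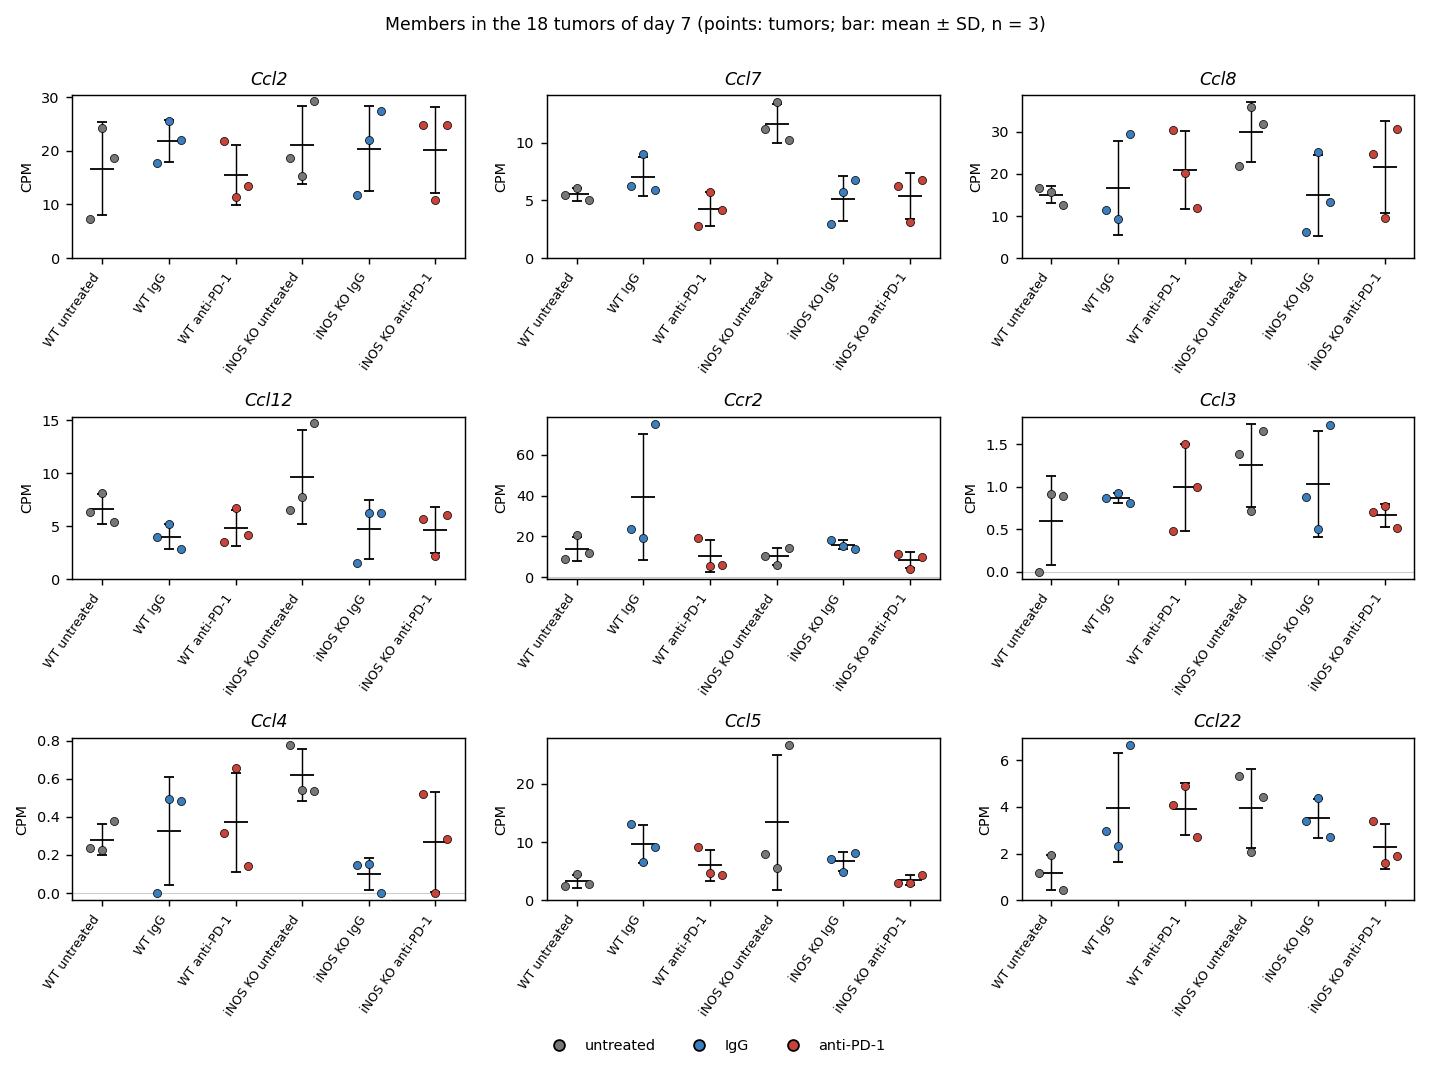
CPM of the 9 genes (y axis, from 0) in each of the 18 tumors of day 7 by genotype and treatment (x axis), with the mean and SD of 3 tumors. The untreated tumors labelled iNOS KO hold 10.2 to 13.6 CPM of Ccl7, above the untreated WT tumors at 5.0 to 6.04 CPM, and 1 IgG tumor of WT mice reaches 75.1 CPM of Ccr2.

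Ccl5, a T cell attractant, had 7.88, 5.59 and 26.6 CPM in the untreated tumors labelled iNOS KO and 2.42, 4.56 and 2.8 CPM in the untreated WT tumors. The groups did not overlap, and the log2 fold change was 2.04 (SE 0.476, 95% interval 1.05 to 3.03, adjusted p = 0.0577 from edgeR), against a median of 0.49 over all genes. The iNOS KO replicate 4 had 26.6 CPM, and without that tumor the value was 1.03 (adjusted p = 0.239, edgeR). It passed the threshold with DESeq2 (adjusted p = 0.00365) and without the 3 libraries rich in sensory receptor counts (2.31, adjusted p = 0.0409, edgeR). Summed T cell markers were 6.84 to 16.4 CPM in the iNOS KO tumors and 2.18 to 6.55 CPM in the WT tumors, and NK cell markers 3.83 to 7.79 and 1.03 to 2.31 CPM. Their part in the Ccl5 values was not tested.

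Ccl7 had 11.2, 13.6 and 10.2 CPM in the untreated iNOS KO tumors and 5.48, 6.04 and 5.0 CPM in the untreated WT tumors, again without overlap. Its log2 fold change was 1.08 (SE 0.34, 95% interval 0.37 to 1.79, adjusted p = 0.206 from edgeR). For Ccl8 the levels were 22, 35.8 and 32 CPM and 16.7, 15.8 and 12.7 CPM, which did not overlap either, with a log2 fold change of 0.99 (SE 0.477, 95% interval −0.0062 to 1.99, adjusted p = 0.299 from edgeR). Ccl12, their neighbour in the cluster, had 6.49, 7.72 and 14.7 and 6.29, 8.12 and 5.41 CPM, and Ccl2 18.7, 15.3 and 29.2 and 7.21, 24.2 and 18.6 CPM, and in both genes the groups overlapped. Ccl22 was at 5.31, 2.07 and 4.45 CPM in iNOS KO and 1.16, 1.94 and 0.463 CPM in WT tumors, which did not overlap, with a log2 fold change of 1.73 (SE 0.544, 95% interval 0.59 to 2.86, adjusted p = 0.205 from edgeR). Ccl4 did not overlap either (0.776, 0.542 and 0.536 against 0.237, 0.228 and 0.376 CPM), at a log2 fold change of 1.13 (SE 1.67, 95% interval −2.36 to 4.61, adjusted p = 0.71 from edgeR). How many of all genes did not overlap was not counted, here or in any other comparison. A lack of overlap is therefore a description of a gene, and cannot be read as particular to the 9. Of the 9 genes 8 had a higher fitted level in the untreated iNOS KO tumors, Ccr2 being the exception, and their median log2 fold change was 1.05. At an unadjusted p under 0.05 the count was 3 of 9 (Ccl5, Ccl7 and Ccl22) where 16.5% of all genes passed, and DESeq2 called 2 of 9 (Ccl5 and Ccl22) where it called 3.11% of all genes.

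The genotypes were also compared under each antibody. In the IgG tumors Ccr2 had 18.2, 15.5 and 13.8 CPM under the iNOS KO label and 23.7, 19.4 and 75.1 CPM in WT, with no overlap and a log2 fold change of −1.31 (SE 0.514, 95% interval −2.39 to −0.24, adjusted p = 0.626 from edgeR). Without WT IgG replicate 3, the tumor with 75.1 CPM, it was −0.44. That tumor also had the highest summed markers of macrophages and monocytes (973 CPM), dendritic cells (41.1 CPM) and fibroblasts (5106 CPM) at day 7. Ccr2 was the single gene of the 9 with an unadjusted p under 0.05 in this comparison (6.26% of all genes) and in the mean of the 3 treatments (12.4% of all genes). Its log2 fold change over the 3 treatments was −0.69 (SE 0.296, 95% interval −1.3 to −0.07, adjusted p = 0.357 from edgeR). After anti-PD-1 Ccl5 had 3.0, 2.99 and 4.43 CPM under the iNOS KO label and 9.09, 4.66 and 4.3 CPM in WT. The log2 fold change was −0.80 (SE 0.466, 95% interval −1.77 to 0.17, adjusted p = 0.213 from edgeR), close to the median of −0.91 over all genes, −1.35 without the 3 libraries rich in sensory receptor counts and −0.31 without WT anti-PD-1 replicate 2. Ccl22 had 3.39, 1.59 and 1.89 and 4.06, 4.92 and 2.72 CPM in the same tumors, and Ccl2 24.8, 10.9 and 24.8 and 21.8, 11.3 and 13.4 CPM. Ccl22 gave a log2 fold change of −0.77 (SE 0.53, 95% interval −1.87 to 0.34, adjusted p = 0.292 from edgeR) and Ccl2 one of 0.37 (SE 0.397, 95% interval −0.46 to 1.2, adjusted p = 0.498 from edgeR). The latter was −0.073 without the 3 libraries, again with 1 WT tumor left. None of the 9 genes had an unadjusted p under 0.05 between the genotypes after anti-PD-1.

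Anti-PD-1 was set against IgG in each genotype. In WT mice Ccr2 had 19.4, 5.71 and 6.17 CPM after anti-PD-1 and 23.7, 19.4 and 75.1 CPM after IgG. All 3 anti-PD-1 tumors were lower, replicate 2 by little, and the log2 fold change was −1.9 (SE 0.525, 95% interval −3.0 to −0.80, adjusted p = 0.305 from edgeR). It was −1.06 without IgG replicate 3, −2.73 (adjusted p = 0.00666, edgeR) without anti-PD-1 replicate 2, and −1.0 without the 3 libraries rich in sensory receptor counts, which leave 1 anti-PD-1 tumor whose spread is taken from the other conditions. Summed markers of macrophages and monocytes were 128 to 467 CPM after anti-PD-1 and 255 to 973 CPM after IgG, and their part in the Ccr2 values was not tested. Ccl7 had 2.81, 5.71 and 4.21 and 6.27, 8.97 and 5.92 CPM in these groups and a log2 fold change of −0.74 (SE 0.344, 95% interval −1.46 to −0.026, adjusted p = 0.305 from edgeR), which was −1.33 without the 3 libraries. At an unadjusted p under 0.05 these were 2 of the 9 genes, where 16.3% of all genes passed. In iNOS KO mice the log2 fold change of Ccr2 was −0.90 (SE 0.514, 95% interval −1.97 to 0.17, adjusted p = 1 from edgeR), that of Ccl7 0.065 (SE 0.338, 95% interval −0.64 to 0.77, adjusted p = 1 from edgeR) and that of Ccl5 −0.94 (SE 0.464, 95% interval −1.91 to 0.028, adjusted p = 1 from edgeR), with 0 of 9 genes under an unadjusted p of 0.05. Whether the effect of anti-PD-1 against IgG differed between the genotypes was tested as an interaction. Its WT anti-PD-1 group holds replicates 3 and 4, both rich in sensory receptor counts, and their part was not tested. For Ccr2 the difference was 1.0 (SE 0.723, 95% interval −0.50 to 2.51, adjusted p = 0.74 from edgeR) and for Ccl7 0.81 (SE 0.482, 95% interval −0.20 to 1.81, adjusted p = 0.698 from edgeR), and 0 of the 9 genes passed at either an adjusted or an unadjusted p of 0.05.

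**Figure D3:**
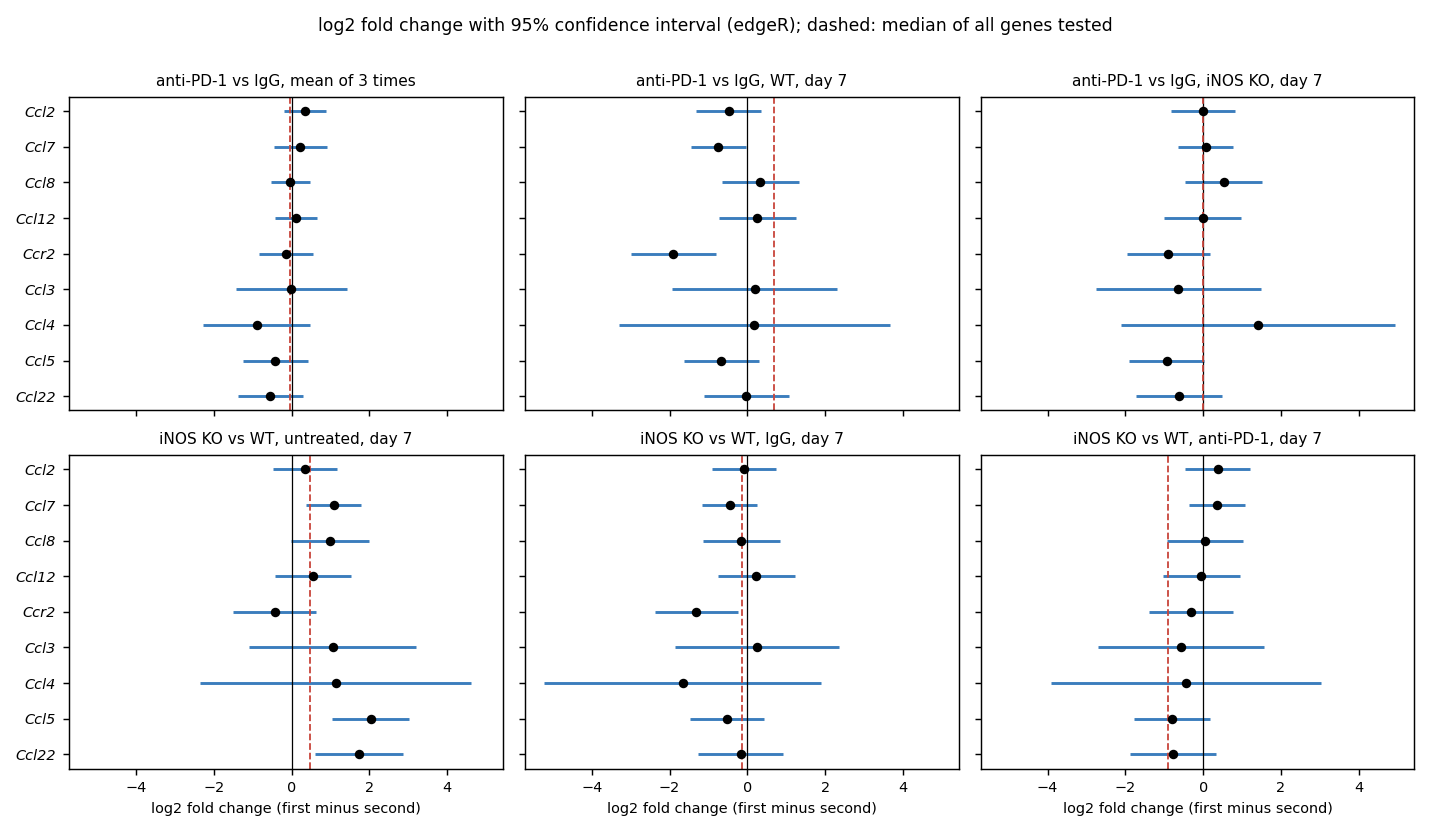
Log2 fold changes (x axis) of the 9 genes with 95% confidence intervals from edgeR, in 6 comparisons, with the median of all genes as a dashed line. Intervals cross 0 for all genes in the 3 times averaged, while those of Ccl5 (1.05 to 3.03), Ccl7 (0.37 to 1.79) and Ccl22 (0.59 to 2.86) lie above 0 in untreated iNOS KO against WT tumors.

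Antibody-treated tumors were also compared with untreated ones. In iNOS KO mice 8 of 9 genes had a negative log2 fold change after IgG and 9 of 9 after anti-PD-1, with medians of −1.01 and −0.91 against −0.45 and −0.44 over all genes. Both comparisons share the untreated iNOS KO tumors with each other and with the genotype comparison above. Ccl7 had 2.97, 5.74 and 6.75 CPM after IgG and 6.26, 3.14 and 6.77 CPM after anti-PD-1, all under the untreated values, with log2 fold changes of −1.17 (SE 0.341, 95% interval −1.89 to −0.46, adjusted p = 0.195 from edgeR) and −1.11 (SE 0.341, 95% interval −1.82 to −0.40, adjusted p = 0.259 from edgeR). Ccl5 had 7.02, 4.93 and 8.07 CPM after IgG and 3.0, 2.99 and 4.43 CPM after anti-PD-1. Its log2 fold change was −1.95 (SE 0.474, 95% interval −2.93 to −0.96, adjusted p = 0.14 from edgeR) after anti-PD-1 and −1.01 (SE 0.46, 95% interval −1.97 to −0.045, adjusted p = 0.314 from edgeR) after IgG, and without untreated replicate 4 these were −0.93 and 0.0078. Summed T cell markers were 6.84 to 16.4 CPM without treatment, 5.03 to 13.5 CPM after IgG and 1.71 to 5.34 CPM after anti-PD-1. NK cell markers were 3.83 to 7.79, 2.23 to 3.54 and 0.404 to 2.05 CPM. The part of both lists in the Ccl5 values was not tested. For Ccl12 (1.53, 6.25 and 6.29 CPM after IgG, 5.66, 2.15 and 6.09 CPM after anti-PD-1) the log2 fold changes were −1.04 and −1.06, and for Ccl8 (6.26, 25.1 and 13.3 and 24.6, 9.46 and 30.6 CPM) they were −1.01 and −0.47. At an unadjusted p under 0.05 the counts were 4 of 9 after IgG (Ccl5, Ccl7, Ccl8 and Ccl12, 15.6% of all genes) and 3 of 9 after anti-PD-1 (Ccl5, Ccl7 and Ccl12, 17.3% of all genes). DESeq2 called Ccl7 after IgG, where it called 2.3% of all genes, and Ccl5 after anti-PD-1, where it called 2.4%.

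The same comparisons in WT mice share the untreated WT tumors. The anti-PD-1 group holds replicates 3 and 4, both rich in sensory receptor counts, and their part in its values was not tested. Ccl22 had 1.16, 1.94 and 0.463 CPM without treatment, 2.96, 2.31 and 6.66 CPM after IgG and 4.06, 4.92 and 2.72 CPM after anti-PD-1, and neither antibody group overlapped the untreated tumors. Its log2 fold change was 1.74 (SE 0.544, 95% interval 0.60 to 2.87, adjusted p = 0.565 from edgeR) after IgG, 1.14 without IgG replicate 3, and 1.71 (SE 0.545, 95% interval 0.58 to 2.85, adjusted p = 0.142 from edgeR) after anti-PD-1, the latter against a median of 0.96 over all genes. Over all settings, that without the 3 libraries among them, the Ccl22 value after anti-PD-1 ran from 1.29 to 2.21. Ccl5 had 13.1, 6.6 and 9.21 CPM after IgG, all above the untreated values, with a log2 fold change of 1.56 (SE 0.47, 95% interval 0.58 to 2.54, adjusted p = 0.565 from edgeR). Ccr2 gave 1.5 (SE 0.517, 95% interval 0.42 to 2.58, adjusted p = 0.565 from edgeR) in that comparison, and 0.63 without IgG replicate 3. Summed T cell markers were 13 to 21.5 CPM after IgG, 15.2 to 30.1 CPM after anti-PD-1 and 2.18 to 6.55 CPM without treatment. Dendritic cell markers were 17.3 to 41.1, 26.2 to 37.8 and 13.8 to 17.6 CPM in the same groups. The part of both lists in these values was not tested. At an unadjusted p under 0.05 the counts were 3 of 9 after IgG (Ccl5, Ccl22 and Ccr2, 7.83% of all genes) and 1 of 9 after anti-PD-1 (Ccl22, 31.9% of all genes), and DESeq2 called Ccl22 after anti-PD-1, where it called 9.21% of all genes. Over the 6 conditions together, 4 of 9 genes had an unadjusted p under 0.05 (28.2% of all genes), with adjusted p = 0.063 for Ccl5, 0.068 for Ccr2, 0.0826 for Ccl7 and 0.167 for Ccl22 from edgeR. DESeq2's likelihood ratio test called 3 of them (Ccl5, Ccl7 and Ccr2), where it called 12.6% of all genes.

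Ccl3 and Ccl4 stayed low at day 7, between 0 and 1.73 CPM (median 0.878) and between 0 and 0.776 CPM (median 0.299), and Ccl2 lay between 7.21 and 29.2 CPM (median 20.2). Their adjusted p over the 6 conditions was 0.94, 0.869 and 0.855 (edgeR), and the 95% interval of iNOS KO against WT in untreated tumors was −0.48 to 1.17 for Ccl2 and −1.08 to 3.19 for Ccl3. These intervals hold differences of either sign.

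Levels of the genes were next related to those of leukocyte markers among tumors of the same condition, as deviations of log2(CPM + 0.5) from the condition mean, so that differences between conditions do not enter. Each of the 9 genes was set against 4 lists (macrophages and monocytes, dendritic cells, T cells and neutrophils), 36 relations in each experiment, with two-sided permutation tests of 100000 shuffles within conditions and adjustment over the 36. All values of a tumor come from 1 library. In the time course 13 of the 36 relations passed an adjusted p of 0.05 by Pearson's r, with the smallest p that the shuffles can give being 1e-05. Genes other than the 9 were not set against the lists in either experiment. The counts of relations thus have no share of all genes beside them and cannot be read as particular to the members. Ccl5 followed dendritic cell markers (Pearson's r = 0.84, p = 1e-05 and adjusted p = 0.00012, Spearman's rho = 0.87, p = 1e-05 and adjusted p = 0.00018, n = 30 tumors, permutation test), and Ccl4 did so with r = 0.83. Without the 2 tumors farthest from the median of the markers, r was 0.83 and 0.81. With T cell markers the highest relation was that of Ccl3 (Pearson's r = 0.80, p = 1e-05 and adjusted p = 0.00012, Spearman's rho = 0.79, p = 5e-05 and adjusted p = 0.00045, n = 30 tumors, permutation test), followed by Ccl5 with r = 0.73 and Ccl4 with r = 0.68, and these were 0.80, 0.68 and 0.64 without the 2 farthest tumors. Ccr2 followed the markers of macrophages and monocytes (Pearson's r = 0.80, p = 5e-05 and adjusted p = 0.00045, Spearman's rho = 0.79, p = 3e-05 and adjusted p = 0.00036, n = 30 tumors, permutation test, r = 0.76 without the 2 farthest tumors) and those of dendritic cells (r = 0.70), but had r = 0.05 with T cell markers. The other relations that passed were those of Ccl2, Ccl3 and Ccl22 with dendritic cell markers (r = 0.49, 0.64 and 0.63), of Ccl4 and Ccl5 with macrophage markers (r = 0.50 and 0.57) and of Ccl8 with neutrophil markers (r = 0.54), the last on a list of which 2 of 6 genes passed the filter. Of these, Ccl2 with dendritic cell markers did not pass by Spearman's rho (adjusted p = 0.0854, permutation test). With a pseudocount of 2 in place of 0.5 Pearson's r did not pass for Ccl2 with dendritic cell markers, Ccl4 with macrophage markers and Ccl8 with neutrophil markers (adjusted p = 0.0703, 0.0516 and 0.0897, permutation test). The last did not pass with DESeq2 size factors either (adjusted p = 0.0516, permutation test). Ccl7 and Ccl12 passed with none of the 4 lists.

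At day 7, 3 of the 36 relations passed. Ccr2 again followed macrophage and monocyte markers (Pearson's r = 0.92, p = 0.00201 and adjusted p = 0.0241, Spearman's rho = 0.87, p = 0.00313 and adjusted p = 0.0376, n = 18 tumors, permutation test), with r = 0.88 without the 2 farthest tumors. Ccl2 followed the same list (Pearson's r = 0.78, p = 0.00075 and adjusted p = 0.0135, Spearman's rho = 0.83, p = 0.00036 and adjusted p = 0.00648, n = 18 tumors, permutation test, r = 0.84 without the 2 farthest), against r = 0.30 in the time course. Ccl22 followed dendritic cell markers (Pearson's r = 0.81, p = 0.00021 and adjusted p = 0.00756, Spearman's rho = 0.86, p = 6e-05 and adjusted p = 0.00216, n = 18 tumors, permutation test, r = 0.76 without the 2 farthest). Without the 3 libraries rich in sensory receptor counts r was 0.90, 0.76 and 0.86 for these relations over 15 tumors, and 0 of the 36 then passed (adjusted p = 0.108, 0.0612 and 0.0612). Ccl5 had r = −0.05 with dendritic cell and 0.20 with T cell markers at day 7. Whether the relations differed between the experiments was not tested.

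**Figure D4:**
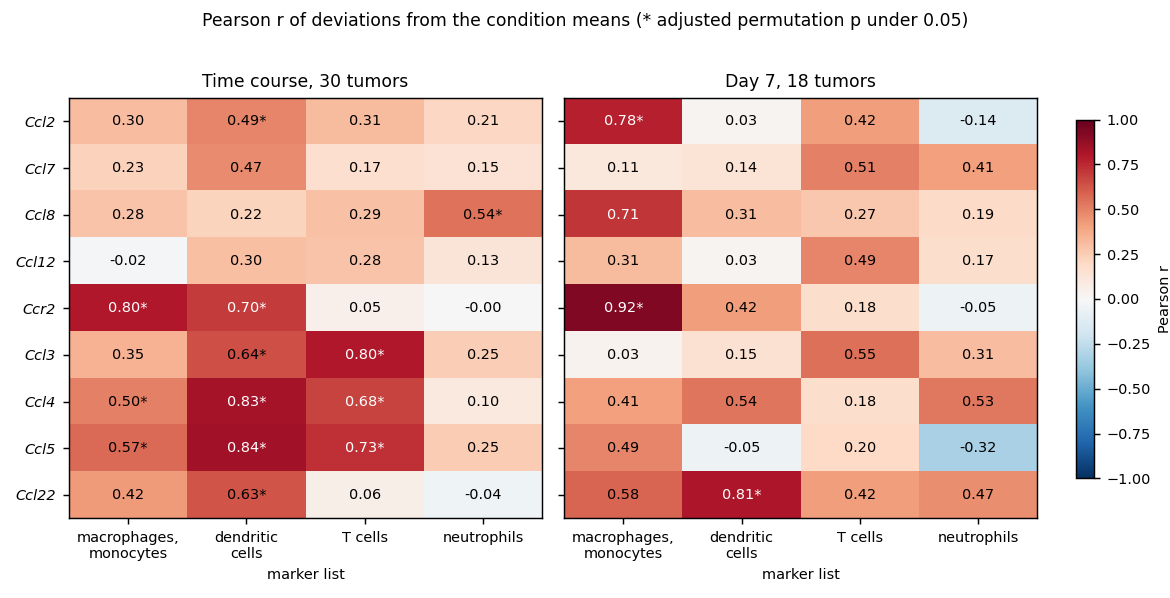
Pearson's r between each gene (rows) and 4 marker lists (columns) over deviations from the condition means, for the 30 tumors of the time course and the 18 of day 7. Asterisks mark an adjusted p under 0.05 by permutation. The relation of Ccr2 to macrophage and monocyte markers is high in both experiments (0.80 and 0.92), while that of Ccl5 to dendritic cell markers is 0.84 in the first and −0.05 in the second.

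Among themselves, the 9 genes formed 36 pairs, given here as descriptions. In the time course Ccl3, Ccl4 and Ccl5 varied together, with r = 0.83 for Ccl4 and Ccl5, 0.74 for Ccl3 and Ccl5 and 0.69 for Ccl3 and Ccl4 over 30 tumors. At day 7 the same pairs had r = −0.26, 0.28 and 0.03 over 18 tumors, where Ccl3 and Ccl4 had few counts. The CCR2 ligands Ccl7 and Ccl12 had r = 0.75 in the time course and 0.81 at day 7. Ccl2, the third ligand of that receptor, had r = 0.62 and 0.35 with Ccl7. The receptor gene had lower values with Ccl7 and Ccl12, at r = 0.18 and −0.09 in the time course and −0.22 and 0.02 at day 7.

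For each gene the genes with the most similar pattern over the 30 tumors of the time course were taken from 15109 genes with a mean of at least 1 CPM. The likeness was Pearson's r of log2(CPM + 0.5), which shares library and depth between the genes. Ccr2 was closest to Rassf4 (r = 0.96), Cd84 (0.94) and Apbb1ip (0.94), and over the 18 tumors of day 7 these had r = 0.91, 0.91 and 0.89. Ccl3 was closest to Irf8 (0.92), an interferon regulatory factor of myeloid cells, Il18bp (0.89) and Tap1 (0.89), with 0.44, 0.49 and 0.38 at day 7. Ccl5 was closest to Il2rb (0.88), a subunit of the receptor for IL-2, Slamf7 (0.85) and Sp110 (0.85), with 0.54, 0.76 and 0.75 at day 7. Ccl4 was closest to Il2rb (0.84), Gbp9 (0.84) and Slfn8 (0.83), and Ccl2 to Isg20 (0.85), Nfil3 (0.84) and Helz2 (0.82). For Ccl7 (Ddx58, Ptprk and Samd9l, 0.71 to 0.75), Ccl12 (Eif2ak2, Ranbp2 and Ktn1, 0.75 to 0.78), Ccl8 (Tbc1d20 with 0.73 and Il2rg with 0.70) and Ccl22 (Mir22hg, Cass4 and Nlrp1c-ps, 0.79 to 0.81) the likeness was lower. At day 7 r was 0.07, −0.26 and 0.27 for the genes nearest to Ccl7 and between −0.16 and −0.02 for those nearest to Ccl12.

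The other CC chemokine genes and receptors were taken from 2 lists of 13 genes each. Of the other ligands, 11 passed the filter in the time course and 9 at day 7, and of the receptors 13 in both, and none of them passed an adjusted p of 0.05 with edgeR in any comparison. The highest count of receptors was that between the genotypes after anti-PD-1, where 5 of 13 had an unadjusted p under 0.05 against 32.3% of all genes and DESeq2 called 4 of 13 against 9.84% of all genes. There 0 of the 13 were higher under the iNOS KO label, with a median log2 fold change of −2.60 against −0.91 over all genes. The WT group of this comparison holds replicates 3 and 4, both rich in sensory receptor counts. Their part in these counts and shares was not tested. For the ligands the highest count was 2 of 11, over the 10 conditions of the time course and for anti-PD-1 against untreated tumors at day 3. The shares of all genes were 5.7% and 2.63%. DESeq2 called 1 of 11 against 1.64% in the former and 0 of 11 against 0.0931% in the latter. Ccl9, Ccl6 and Ccl11 had median levels per length of 37.2, 42.2 and 13.7 RPKM in the time course, against 21.2 RPKM for Ccl8. Ccl9 lay between 40.3 and 379 CPM (median 113) and Ccl6 between 24.4 and 311 CPM (median 75.7). Ccl19 and Ccl26 did not pass the filter in either experiment, with at most 3 counts in 27 of 30 libraries each in the time course. Ccl17, the other ligand of CCR4, lay between 0 and 4.65 CPM (median 0.994) in the time course and between 0 and 1.18 CPM (median 0.174) at day 7. Ccr1, a receptor of Ccl3 and Ccl5, lay between 4.19 and 20.8 CPM (median 8.26) in the time course and between 1.09 and 15.4 CPM (median 6.74) at day 7. Ccr3, Ccr4, Ccr8 and the decoy receptor Ackr2 had few counts, with medians of 0.245, 0.38, 0.298 and 0.733 CPM in the time course. Their highest values at day 7, 3.67 CPM for Ccr4 and Ackr2 and 1.84 CPM for Ccr8, were in WT anti-PD-1 replicate 3, the library with the most sensory receptor counts. Its part in them was not tested.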

How the data were processed

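RNA of 48 tumors was sequenced in strand-specific libraries. According to the authors, adapters were removed with cutadapt 1.8.1, reads were aligned to mm10 with STAR 2.7.7a, and counts per gene of GENCODE vM21 were estimated with RSEM 1.3.0. The deposited counts are whole numbers without normalization, and their file's name points to another counting program. Conditions came from the titles. The treatment field matched the condition used here in 14 of 48 samples, the time field in 11 and both fields in 5. Titles place the 6 h tumors at day 0 and give no time for the second experiment, which the paper sets at day 7. Each experiment was fitted alone with edgeR 4.0.16 in R 4.3.3 (TMM, filterByExpr with a minimum count of 10, quasi-likelihood F-test, Benjamini-Hochberg adjustment over 26848 or 30837 genes, threshold 0.05), with DESeq2 1.42.0 as an alternative. The fit and the permutation test were run on simulated data. For the fit, the simulated spread between tumors was smaller than in these data. It thus cannot tell how often changes of the sizes seen here would be found. Standard errors and 95% intervals from edgeR were worked out from the log2 fold change and its F statistic. They are less reliable for genes with few counts. Libraries of a condition differed beyond counting noise (chi-square per gene at least 16.2). Each tumor came from 1 mouse and gave 1 library. The spread therefore holds differences between mice together with those of tissue sampling and library, which cannot be told apart.

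The members, lists and comparisons were chosen with earlier results of these data known. Named were the 9 members, the receptors they bind with Ackr2, Ccl17 and Nos2, other listed genes past the threshold, and the 3 genes most like each member, of which some items are not reported here; Ccl6, Ccl9, Ccl11, Ccl19, Ccl26 were chosen after their values were seen, as was the TATAAA motif. The alternatives were other size factors, no filter, DESeq2, only the compared groups, a replicate block, sensory receptor counts as a covariate, each replicate left out, and other pseudocounts than 0.5 for correlations. Leaving out the 3 libraries rich in sensory receptor counts was added after seeing the data.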

Additional observations from a re-analysis of the deposited data

How the results depend on the processing

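The counts of members called (0 of 9 with edgeR in all 24 comparisons) moved with the settings. Without the filter on low counts, with the share of all genes then called beside each, they were 1 among the 10 conditions of the time course (Ccr2, 2.85%), 3 for untreated iNOS KO against WT (Ccl5, Ccl8 and Ccl22, 2.63%), and 1 each (Ccr2) for iNOS KO against WT with IgG (0.535%), iNOS KO against WT over the 3 treatments (2.27%) and anti-PD-1 against IgG in WT (1.92%). Against untreated they were 2 for IgG (Ccl5 and Ccr2, 1.3%) and 1 for anti-PD-1 (Ccl22, 4.56%) in WT, and 2 for IgG (Ccl7 and Ccl8, 2.66%) and 1 for anti-PD-1 (Ccl5, 2.84%) in iNOS KO. Among the 6 conditions of day 7 the count was 5 (14.4%). With DESeq2 they were 2 for untreated iNOS KO against WT, 1 for anti-PD-1 against untreated in WT, 1 each for IgG and for anti-PD-1 against untreated in iNOS KO, and 3 among the 6 conditions. For untreated iNOS KO against WT the count was also 1 with DESeq2 size factors (0.795% of all genes), 2 with only these groups in the fit (Ccl7 and Ccl8, 1.29%) and 1 without the 3 libraries rich in sensory receptor counts (0.563%), and with the covariate it was 1 (Ccl5, 1.06%) among the 6 conditions. The cause was not tested. Leaving out 1 tumor gave 0 to 1 members for untreated iNOS KO against WT (Ccl5, without iNOS KO replicate 1 or 2 or WT replicate 2), 0 to 1 for anti-PD-1 against IgG in WT (Ccr2, without anti-PD-1 replicate 2), 0 to 1 for anti-PD-1 against untreated in iNOS KO (Ccl5, without untreated replicate 1 or 2) and 0 to 3 among the 6 conditions, with 2 or 3 members for most of the tumors left out. The share of all genes called without each tumor is not given here, so these counts cannot be read as particular to the members.

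Of 30 log2 fold changes followed, 3 changed sign in some setting: Ccl5 for anti-PD-1 against IgG at 6 h (−0.76 without anti-PD-1 replicate 5, −0.075 without IgG replicate 2, 1.28 without IgG replicate 1), Ccl2 for iNOS KO against WT after anti-PD-1 (−0.068 with the covariate, −0.073 without the 3 libraries) and Ccl5 for IgG against untreated in iNOS KO (0.0078 without untreated replicate 4, −1.37 without replicate 2, −1.4 with the covariate). Replicate numbers did not pair the tumors: same-numbered tumors of different conditions had a median correlation of −0.027 in the time course (65 pairs) and −0.019 at day 7 (36 pairs), and 0 of 30 and 1 of 18 libraries correlated best with their own number. With a replicate block the members called stayed at 0 in every comparison, and Ccl5 for untreated iNOS KO against WT had 1.54 (adjusted p = 0.274, edgeR). The number of marker relations past the threshold stayed within 1.5 times of 13 and 3 with the other pseudocounts and size factors, and was 0 at day 7 without the 3 libraries. At most 3 counts were found for Ccl4 in 2 of 30 and 4 of 18 libraries and for Ccl3 in 1 of 30 and 1 of 18.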
